A study of Gallus gallus with 12 samples.

Results

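Livers of 3 hens at the peak laying stage (PL, day 220) were compared with livers of 3 juvenile birds (JP, day 60), all female chickens of the Luhua breed. These 6 livers were chosen by their labels from the 12 livers of the series, whose other 6 came from sexual maturity (SM, day 133) and broodiness (BP, day 400). Total RNA of each liver was sequenced after removal of ribosomal RNA, in 1 strand-specific library for each bird. No treatment or genetic change was part of the design, so age and laying state changed together and cannot be told apart. Liver tissue holds several cell types, and a change in their shares cannot be told apart from a change within hepatocytes.

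The liver of the laying hen supplies the ovary with yolk. Estrogen from the maturing ovary makes hepatocytes synthesize vitellogenins and very low-density lipoprotein, which enter the blood and are taken up by growing oocytes, and hepatic synthesis of fatty acids rises with them. A juvenile liver does not yet carry this load. Long non-coding RNAs (lncRNAs) are long transcripts without apparent coding potential, usually of low abundance, and some act on the transcription or stability of other RNAs.

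The values were FPKM, the fragments of a transcript scaled to its length and to the mapped fragments of its library. A transcript was tested where 3 or more of the 6 livers exceeded 0.1 FPKM, which held for 14897 of 18260 mRNAs and for 3521 of 16930 lncRNAs. The files identify mRNAs by Ensembl transcript and lncRNAs by an assembly number but give no gene names with them, so 4 mRNAs are named by identifier, no pathway is named, and the label of the tissue was not checked against marker genes. The lncRNAs named are 5 that the study chose for qPCR and those with the largest changes. The study counted all 5 as differentially expressed in its own comparisons of stages. Its qPCR levels were not compared with the values here. Because no sequence of the lncRNAs themselves was used here, the qPCR primers of the study are shown, as DNA from 5′ to 3′, for the 3 of these lncRNAs whose difference between stages passed the test.
TCONS_00179354 forward primer: ctgatggaagtcaggcagctctc
TCONS_00179354 reverse primer: acaaggcaggtatcatgctggaag
TCONS_00155619 forward primer: catcaactccagccttcctctgc
TCONS_00155619 reverse primer: cagcctgcggatacttccaagtc
TCONS_00037924 forward primer: ttaacaagaagggaaatgtggactg
TCONS_00037924 reverse primer: caattccttttgtttcctcttctga

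The sum of mRNA FPKM ranged from 408296 to 478988 in PL livers and from 516697 to 539529 in JP livers. The files hold no read counts for the transcripts. The commonest ratio of low lncRNA values between livers was taken as that of 1 fragment to 1 fragment. It placed the total of mapped fragments at 0.798, 0.917 and 0.671 of the JP1 total in PL1, PL2 and PL3. For JP2 and JP3 it gave 1.03 and 0.976 of the JP1 total. That ratio, in a bin of 0.01 on the log2 scale, was held by 19 to 35 of 1288 to 1513 lncRNAs. By this estimate PL3 had the fewest fragments, and it also had the fewest clean reads that the study reported for these livers. It also stood apart from PL1 and PL2 in its expression, as described below, and values without it are given beside the main counts and named transcripts.

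At PL, a small set of mRNAs that were almost absent from JP livers reached levels among the highest of the transcriptome. On FPKM as deposited, more mRNAs were called lower than higher. In total 2352 of the 14897 mRNAs tested (15.8%) were called differentially expressed by limma, with a Benjamini-Hochberg adjusted p below 0.05 together with a change of 1.5-fold or more in FPKM + 1. Of these, 834 were higher (5.6% of those tested) and 1518 were lower at PL (10.2%). This balance was not kept after median-ratio scaling (1389 higher, 1356 lower) or without PL1 (826 higher, 747 lower). The livers of the stages did not overlap for 5638 mRNAs (37.8%). All PL livers lay above all JP livers for 2109 (14.2%) and below them for 3529 (23.7%). The filter fixed this for mRNAs above 0.1 FPKM in every liver of a single stage and in no liver of the other. The median change was 1.11 among the higher mRNAs and -0.995 among the lower mRNAs, beside -0.08 over all mRNAs tested. The rises reached further than the falls. A change of more than 8 on the log2 scale was found for 8 of the higher mRNAs and 0 of the lower, and a change of at least 1 for 509 and 750.

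**Figure D1:**
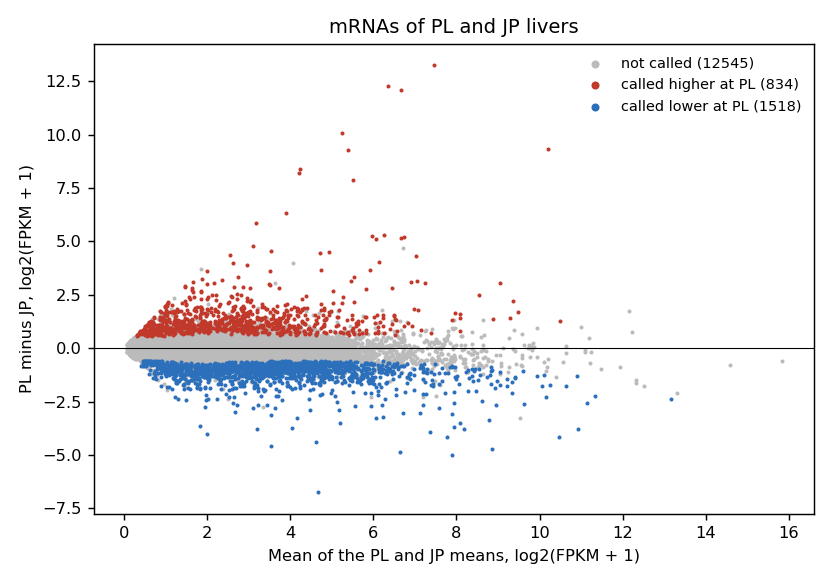
Difference between PL and JP livers (y axis, PL minus JP, log2(FPKM + 1)) against the mean of both stages (x axis, same scale), 1 point for each of 14897 mRNAs tested. Red points are the 834 mRNAs called higher at PL and blue points the 1518 called lower. The rises extend to 13.24 and the falls to -6.75.

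The largest rise was that of ENSGALT00000060226, with 27300, 25146 and 7674 FPKM in PL1, PL2 and PL3, against 0.395, 1.05 and 1.03 FPKM in JP1, JP2 and JP3. It averaged 14.09 ± 1.02 at PL and 0.85 ± 0.32 at JP on the log2(FPKM + 1) scale (SD, n = 3 each), a difference of 13.24 with a standard error of 0.46 (limma, adjusted p = 4.79e-06). Every PL liver lay far above every JP liver, and PL3 held less of this mRNA than the other PL livers.

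The next largest rise, that of ENSGALT00000051020, had the same order of livers within PL. It stood at 9088, 8212 and 2525 FPKM in PL1, PL2 and PL3, against 0.0971, 0.164 and 0.257 FPKM in JP1, JP2 and JP3. The difference was 12.26 with a standard error of 0.44 on the log2(FPKM + 1) scale (limma, adjusted p = 4.79e-06).

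The mRNAs with the largest falls were abundant in JP livers. ENSGALT00000012356 had 0.356, 1.37 and 3.64 FPKM in PL1, PL2 and PL3, against 386, 97.4 and 491 FPKM in JP1, JP2 and JP3, a difference of -6.75 with a standard error of 0.62 on the log2(FPKM + 1) scale (limma, adjusted p = 0.000725). ENSGALT00000011516 had 12.03, 27.2 and 193 FPKM in PL1, PL2 and PL3, against 1800, 994 and 1361 FPKM in JP1, JP2 and JP3, a difference of -5.02 with a standard error of 0.82 (limma, adjusted p = 0.00741). In both, the stages did not overlap and PL3 lay nearest to JP. All 4 mRNAs were called in each of 15 other settings and fits. Without PL3, the difference was 13.83 for ENSGALT00000060226, 12.85 for ENSGALT00000051020, -7.21 for ENSGALT00000012356 and -6.13 for ENSGALT00000011516.

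**Figure D2:**
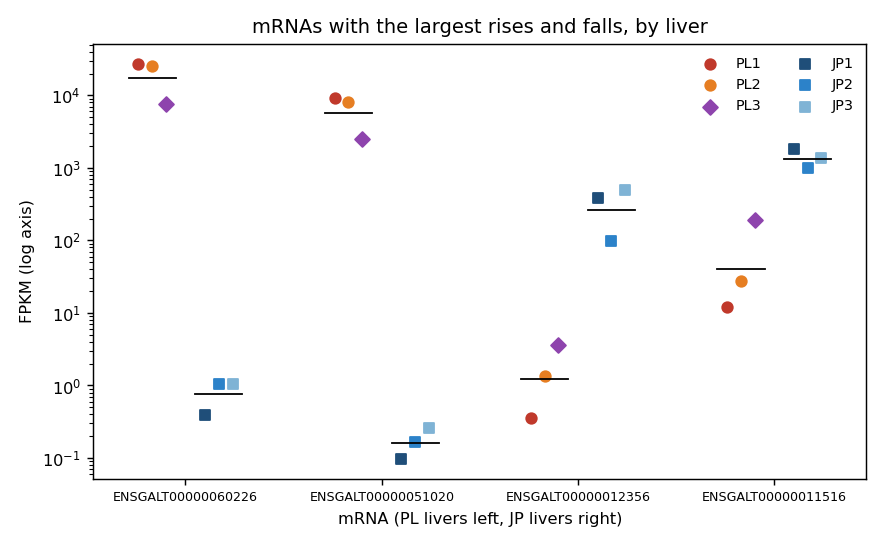
FPKM (log axis) of the 2 mRNAs with the largest rise and the 2 with the largest fall, 1 point for each liver, PL livers left and JP livers right of each pair. Bars are geometric means of 3 livers. PL3 (diamonds) lies closer to the JP livers than PL1 and PL2 do, for example at 7674 FPKM against 27300 and 25146 FPKM in ENSGALT00000060226.

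The few large rises held a large part of the mRNA FPKM sum in PL1 and PL2, and a smaller part in PL3. The 834 mRNAs called higher made up 33.4%, 30.7% and 11.98% of the mRNA FPKM sum in PL1, PL2 and PL3, against 1.65%, 1.82% and 1.86% in JP1, JP2 and JP3. Within this set the 10 largest rises alone held 26.3%, 22.6% and 5.24% in PL1, PL2 and PL3, against 0.00276%, 0.00822% and 0.0402% in JP1, JP2 and JP3. The 1518 mRNAs called lower made up 8.89%, 9.81% and 12.2% in PL1, PL2 and PL3, against 31.0%, 26.9% and 28.6% in JP1, JP2 and JP3. These shares describe the called sets, whose direction the call itself had fixed. Because FPKM divides by the fragments of the library, mRNAs that take a large share can lower the FPKM of the rest in that library. Whether this had a part in the falls was not tested.

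**Figure D3:**
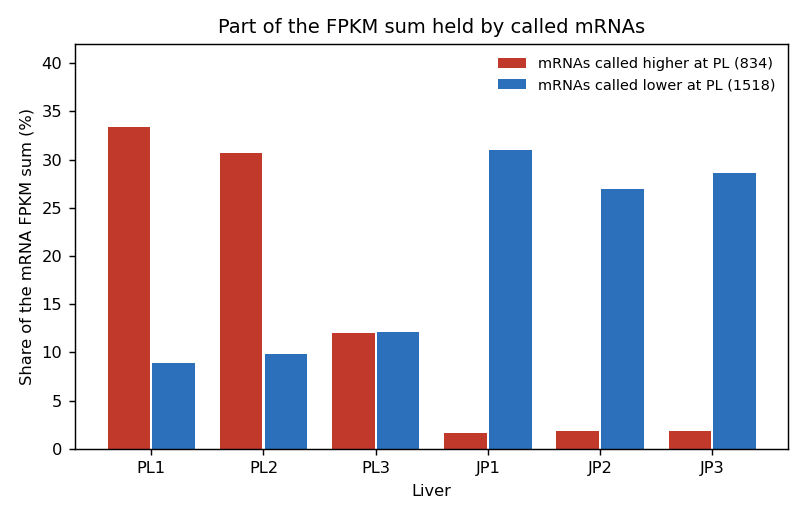
Share of the mRNA FPKM sum (%, y axis) held by mRNAs called higher (red) and called lower (blue) at PL, for each liver. The higher mRNAs held 33.4% and 30.7% in PL1 and PL2 and 11.98% in PL3, and at most 1.86% in a JP liver.

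The most abundant mRNAs of either stage are given beside the shares over all mRNAs tested, of which 5.6% were called higher and 10.2% lower. Of the 40 mRNAs that averaged 1000 FPKM or more at PL, 11 were called higher and 4 lower. Of the 52 mRNAs that averaged 1000 FPKM or more at JP, 0 were called higher and 24 were called lower by limma. Ranking by the mean of a stage favours mRNAs that are high in that stage, and both rankings are given for this reason. The 50 most abundant mRNAs by mean PL level and the 50 by mean JP level had 29 in common. In the PL list 12 were called higher and 5 lower, and in the JP list 0 were called higher and 24 lower.

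The concentration of expression in a few mRNAs did not differ beyond the spread of the livers. The 50 most abundant mRNAs of each liver held 53.6 ± 4.31% of its FPKM sum at PL and 52.8 ± 1.40% at JP (SD, n = 3 each), a difference of 0.809 percentage points (exact permutation test, two-sided, p = 0.9) and of 3.02 without PL3 (exact permutation test, p = 0.4). The number of mRNAs above 1 FPKM was 10478 ± 593 at PL and 10476 ± 247 at JP (SD, n = 3 each, exact permutation test, two-sided, p = 1.0). These close means rested on opposing livers and on the scale: the PL minus JP difference was -312 without PL3 (exact permutation test, p = 0.6), 278 without PL1 (exact permutation test, p = 0.4) and 265 after median-ratio scaling (exact permutation test, p = 0.1). The number of lncRNAs above 1 FPKM was 533 ± 32.1 at PL and 485 ± 15.3 at JP, with every PL liver above every JP liver (SD, n = 3 each, exact permutation test, two-sided, p = 0.1). The difference was 48.3, and 29.8 without PL3, where the stages still did not overlap (exact permutation test, p = 0.2). It was 66.7 after median-ratio scaling (exact permutation test, p = 0.3), and at a minimum of 0.1 FPKM it was 81.0 (exact permutation test, p = 0.7) with overlapping stages. With 3 livers against 3, this test cannot give a p below 0.1, and with 1 liver left out it cannot give a p below 0.2.

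Some mRNAs were listed in all livers of one of these stages and at 0 in all livers of the other. Most were above 0 somewhere at SM or BP, where 3 of the 28 and 2 of the 18 described next were at 0 throughout. FPKM was above 0.1 in every PL liver and 0 in every JP liver for 28 mRNAs, of which 10 were called and the highest averaged 4.19 FPKM at PL. The opposite pattern was found for 18 mRNAs, of which 5 were called and the highest averaged 27.1 FPKM at JP. Over all mRNAs tested, 5.6% were called higher and 10.2% lower. Both patterns select mRNAs whose stages are separate, so the calls among them are not independent of the choice. Most of these transcripts were of low level, with medians of 0.689 FPKM at PL and 0.270 FPKM at JP, where the FPKM of a transcript can be set by a few fragments.

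The balance of higher and lower mRNAs changed with the scaling and with the livers. Of all mRNAs called with FPKM as deposited, 35.5% were higher at PL. When livers were scaled by median ratios, 1389 mRNAs were called higher and 1356 lower (50.6% higher), and under upper-quartile scaling 1510 were called higher and 1237 lower (55% higher). The median difference over all mRNAs moved from -0.08 to 0.01 and 0.02 under these scalings, a shift of 0.11 for the upper quartile. On the deposited scale without PL1, 826 mRNAs were called higher and 747 lower (52.5% higher). Median-ratio scaling centres the differences by construction, so these values do not show which balance is the right one. Of the 2352 calls, 2049 were also made in the same direction after median-ratio scaling.

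The count also depended on single livers. It was 826 without PL2, 852, 874 and 814 without JP1, JP2 and JP3, and 1573 without PL1, but 4054 without PL3. In the fit without PL3, 993 mRNAs were higher and 3061 lower, and 2284 of the 2352 calls were among them. All 6 fits that left out 1 liver shared 602 of the calls, 269 higher and 333 lower.

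Within PL, PL1 and PL2 were alike and PL3 stood apart. Spearman's rho over the mRNAs tested was 0.972 between PL1 and PL2, 0.944 between PL1 and PL3 and 0.951 between PL2 and PL3, beside 0.970 to 0.973 between JP livers. A difference of at least 2-fold in FPKM + 1 was found for 336 mRNAs between PL1 and PL2, for 1664 between PL1 and PL3 and for 1028 between PL2 and PL3, beside 287 to 357 between JP livers. PL3 was also the PL liver nearest to JP, with rho of 0.920 to 0.925 to the JP livers, beside 0.904 to 0.908 for PL1 and PL2. This was not particular to JP. Mean rho to the SM livers was 0.920 for PL3, beside 0.888 for PL1 and 0.901 for PL2. To the BP livers it was 0.917 for PL3, beside 0.899 for PL1 and 0.911 for PL2. The first principal component, with 63.3% of the variance, gave scores of 55.4, 51.0 and 21.9 to PL1, PL2 and PL3, against -42.1, -43.6 and -42.6 for JP1, JP2 and JP3.

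To place each PL liver by mRNAs that it had not helped to choose, calls were taken from the fit without that liver, and its level was expressed as a position between the JP mean (0) and the mean of the other PL livers (1). For mRNAs called lower, the median position was 1.19 for PL1 (747 mRNAs), 0.963 for PL2 (456 mRNAs) and 0.482 for PL3 (3061 mRNAs). PL3 thus kept about the middle level between the stages for the mRNAs that were low in PL1 and PL2, and 52.0% of them lay nearer to JP. For mRNAs called higher, the median position was 0.701 for PL1 (826 mRNAs), 1.06 for PL2 (370 mRNAs) and 0.903 for PL3 (993 mRNAs). After median-ratio scaling of the same mRNAs, the medians for PL3 were 0.844 for the lower and 0.645 for the higher mRNAs, so that how far PL3 stood toward JP in each direction depended on the scaling. By the estimate above, PL3 had the lowest total of fragments, 0.671 of that of JP1, beside 0.798 in PL1 and 0.917 in PL2. The part of these totals in the positions was not tested.

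**Figure D4:**
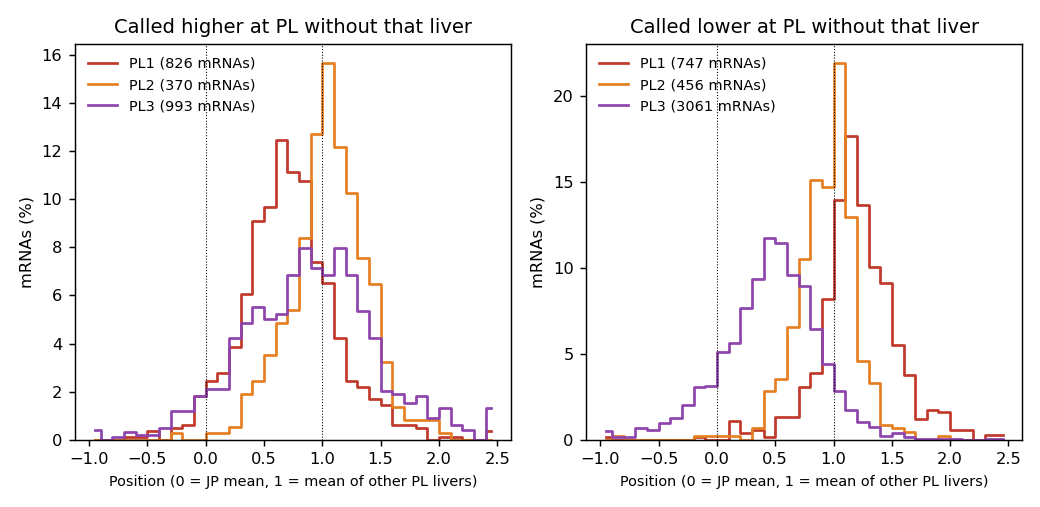
Position of each PL liver (x axis, 0 is the JP mean and 1 the mean of the other PL livers) for mRNAs called without that liver, higher at PL (left) and lower at PL (right), as a percent of those mRNAs (y axis), on deposited FPKM. Values beyond the axis are drawn in the end bins. For lower mRNAs the curve of PL3 peaks near the middle, with a median of 0.482, beside 1.19 for PL1 and 0.963 for PL2.

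PL3 also stood apart from the other 5 livers in single mRNAs, on FPKM as deposited. It lay at least 1 on the log2 scale above all other 5 livers for 130 mRNAs and below them for 27, beside 30 and 59 for PL1 and 18 to 29 and 6 to 12 for the other livers. For lncRNAs these numbers were 16 and 3 in PL3 and at most 15 and 5 in any other liver. The median-ratio factors for mRNAs were highest in PL3 (1.19) and lowest in PL1 (0.784). These counts were not repeated after scaling, and SM and BP livers did not enter them.

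Few lncRNAs passed the test. By limma, 48 of the 3521 lncRNAs tested were called (1.36%), 26 higher (0.738%) and 22 lower at PL (0.625%). The count depended on the value added before the logarithm, which understates changes of low transcripts. With 0.1 added in place of 1, 201 of the same 3521 were called. An unadjusted p under 0.05 was found for 778 of the 3521 in the main fit. The livers of both stages did not overlap for 1027 (29.2%), with PL above JP for 510 (14.5%) and below for 517 (14.7%). Part of this separation came with the filter. An lncRNA above 0.1 FPKM in every liver of a single stage and in no liver of the other passes it and cannot overlap. For mRNAs an unadjusted p under 0.05 was found for 4985 of the 14897 tested. The median change was 1.27 among the higher lncRNAs and -1.38 among the lower lncRNAs, beside -0.0035 over all lncRNAs tested. The 26 higher lncRNAs summed to 62.8, 70.6 and 62.8 FPKM in PL1, PL2 and PL3. In JP1, JP2 and JP3 they summed to 3.46, 2.03 and 4.85 FPKM. Their share of the lncRNA FPKM sum was 2.02%, 1.98% and 1.58% in PL1, PL2 and PL3. The 22 lower lncRNAs held 4.61%, 7.14% and 5.24% of that sum in JP1, JP2 and JP3. In PL1, PL2 and PL3 they held 0.835%, 0.999% and 1.20%. These shares describe called sets, whose direction the call itself had fixed.

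This list was not stable to the loss of a liver. Limma called 9 lncRNAs without PL1, 7 without PL2, 106 without PL3, 1 without JP2 and 0 without JP1 and without JP3, where 635 and 654 had an unadjusted p under 0.05. No lncRNA was called in all 6 of these fits.

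TCONS_00179354, an lncRNA measured by qPCR in the study, had the largest rise among called lncRNAs. It had 11.1, 9.95 and 2.44 FPKM in PL1, PL2 and PL3, against 0.0223, 0 and 0.0229 FPKM in JP1, JP2 and JP3, a difference of 2.92 with a standard error of 0.46 on the log2(FPKM + 1) scale (limma, adjusted p = 0.0370). PL3 again had the lowest level of the PL livers, still above every JP liver. The difference was 3.50 without PL3, and the call was lost in 8 of 15 other settings and fits.

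TCONS_00168923 had the next largest rise among called lncRNAs. It had 5.92, 5.77 and 12.4 FPKM in PL1, PL2 and PL3, against 0.149, 0.0154 and 1.63 FPKM in JP1, JP2 and JP3, a difference of 2.56 with a standard error of 0.44 (limma, adjusted p = 0.0438). Here PL3 was the highest liver, and without it the difference was 2.23 and the call was lost (limma, adjusted p = 0.0518). The call was lost in 7 of 15 settings and fits.

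TCONS_00155619, another lncRNA of the qPCR set, was near the floor in JP livers and had no low PL liver. It had 3.61, 2.72 and 6.03 FPKM in PL1, PL2 and PL3, against 0.196, 0.0300 and 0.0377 FPKM in JP1, JP2 and JP3, a difference of 2.19 with a standard error of 0.26 (limma, adjusted p = 0.0257). The difference was 1.93 without PL3, and its call was lost in 5 of 15 settings and fits.

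Among the falls, TCONS_00062705 was listed at 0, 0 and 4.60 FPKM in PL1, PL2 and PL3, against 20.4, 38.5 and 35.4 FPKM in JP1, JP2 and JP3, a difference of -4.14 with a standard error of 0.68 (limma, adjusted p = 0.0370). PL3 was the PL liver in which it was detected. TCONS_00037924, measured by qPCR in the study, had 1.05, 5.88 and 5.25 FPKM in PL1, PL2 and PL3, against 29.4, 76.5 and 25.3 FPKM in JP1, JP2 and JP3, a difference of -3.15 with a standard error of 0.59 (limma, adjusted p = 0.0487). Without PL3 the differences were -4.97 for TCONS_00062705 and -3.40 for TCONS_00037924, whose call was then lost (limma, adjusted p = 0.0574). Both kept to separate ranges between the stages, and their calls were lost in 7 and 11 of 15 settings and fits.

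The other lncRNAs of the qPCR set did not pass the test. TCONS_00083873 had 7.96, 6.10 and 1.33 FPKM in PL1, PL2 and PL3, against 0.0964, 0.307 and 0.0409 FPKM in JP1, JP2 and JP3, a difference of 2.21 with a standard error of 0.47 (limma, adjusted p = 0.0635), and it was called in 5 of 15 other settings and fits, among them that without PL3 (difference 2.80, limma, adjusted p = 0.00292). Its livers did not overlap. TCONS_00220501 had 20.5, 26.1 and 29.8 FPKM in PL1, PL2 and PL3, against 17.9, 22.6 and 0 FPKM in JP1, JP2 and JP3, a difference of 1.78 with a standard error of 1.09 (limma, adjusted p = 0.387). Its stages overlapped, and without JP3, where it was listed at 0, the difference was 0.31. Without PL3 the difference was 1.66.

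Several of the higher lncRNAs carried close assembly numbers, a pattern that was noticed after the values had been seen and is given without a test. Of the 48 called lncRNAs, 9 had another called lncRNA within 20 numbers, in 3 runs of 3 each, all higher at PL. The numbers are not coordinates, and where these transcripts lie in the genome was not examined here. Whether transcripts of a run share sequence or reads was not tested. No share over all 3521 lncRNAs tested is given beside the 9 of 48, so whether this count is high cannot be said.

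The run with most transcripts, TCONS_00179344 to TCONS_00179354, had 11 lncRNAs in the table, of which 8 were tested and 3 called. TCONS_00179351 had a rise of 3.25, larger than that of any called lncRNA, but was not called (limma, adjusted p = 0.0885). It had 22.5, 17.9 and 0.920 FPKM in PL1, PL2 and PL3 and was listed at 0 in every JP liver. All PL livers lay above all JP livers in 10 of the 11, and 7 were listed at 0 in every JP liver. Over all 3521 lncRNAs tested, all PL livers lay above all JP livers for 510 (14.5%), and 1.36% were called. That share is over tested lncRNAs, while the 11 of the run include some not tested. A single JP liver had 9771 to 10274 of all 16930 lncRNAs listed at 0. The number at 0 in every JP liver together is not given, so that range is no background for the 7. The run was marked out by its called lncRNAs, so their separation came with the choice. Summed over the run, FPKM was 52.5, 44.6 and 11.1 in PL1, PL2 and PL3, against 0.0602, 0.0444 and 0.0515 in JP1, JP2 and JP3. PL3 was the lowest PL liver in 10 of the 11, as it was in ENSGALT00000060226 and ENSGALT00000051020. The order of PL1 and PL2 varied within the run.

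The run TCONS_00155613 to TCONS_00155620 summed to 7.63, 10.03 and 13.5 FPKM in PL1, PL2 and PL3, against 0.670, 0.108 and 0.185 FPKM in JP1, JP2 and JP3. PL3 was the lowest PL liver in 0 of its 3 lncRNAs. The run TCONS_00038625 to TCONS_00038638 summed to 3.07, 6.16 and 3.08 FPKM in PL1, PL2 and PL3, against 0.106, 0.0111 and 0.0808 FPKM in JP1, JP2 and JP3. PL3 was the lowest PL liver in 2 of its 3 lncRNAs.

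**Figure D5:**
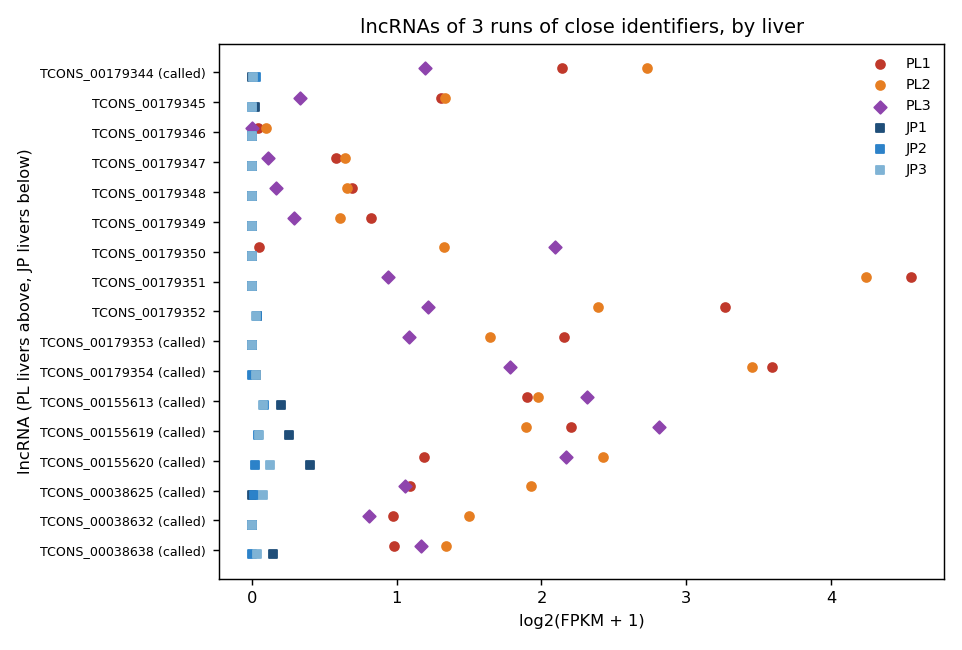
log2(FPKM + 1) (x axis) of 17 lncRNAs in 3 runs of close identifiers (y axis), 1 point for each liver, PL livers above and JP livers below each line. In the first 11 rows PL3 (diamonds) is the lowest PL liver in 10, in the next 3 rows in 0, and in the last 3 rows in 2.

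The study listed the lncRNAs of 3 of its co-expression modules, which were built on these same samples, so their direction here is not independent evidence. Module 2 had 132 lncRNAs, 71 of them tested, of which 12 were called higher and 0 lower by limma, beside 26 higher (0.738%) and 22 lower (0.625%) among all 3521 lncRNAs tested. Its median difference was 0.74, beside -0.0035 over all lncRNAs tested, and in 68 of the 71 the PL mean was above the JP mean, beside 1727 of the 3521. Over its 132 lncRNAs the mean log2(FPKM + 1) was 1.11, 0.89 and 0.35 in PL1, PL2 and PL3, against 0.10, 0.06 and 0.06 in JP1, JP2 and JP3. The order of PL livers was that of the largest mRNA rises. Of module 1, 55 of 247 lncRNAs were tested, 2 were called higher and 0 lower, and the median was 0.07. Of module 3, 16 of 105 were tested, 0 were called in either direction and the median was 0.02.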

How the data were processed

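Reads were mapped by the authors to Gallus_gallus-5.0 with HISAT2 2.1.0 and transcripts were assembled with StringTie 1.3.3. The authors deposited FPKM values per liver in a table of mRNAs and a table of lncRNAs, without pooling replicates, and 0 columns were left out here. FPKM values are relative to the mapped fragments of a library, so abundant transcripts can lower the others.

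Differences (PL minus JP) were tested with limma 3.58.1 (R 4.3.3) after taking log2(FPKM + 1), a scale that understates changes of low transcripts. Only the 6 livers entered the fit, with moderation by a variance trend, mRNAs and lncRNAs apart, and p-values were adjusted over all transcripts tested. The authors used edgeR on read counts, which FPKM values do not allow. The code was tested on simulated data. Other summaries were made in Python 3.11.15 with numpy 2.4.6, pandas 2.3.3, scipy 1.17.1 and matplotlib 3.10.9. Relative library totals came from the commonest ratio to JP1 of lncRNA values below 0.1 FPKM, in bins of 0.01 on the log2 scale.

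Transcripts named were the 2 called mRNAs and lncRNAs with the largest rise and fall whose livers did not overlap, and the 5 lncRNAs of the qPCR set. The members and lists were chosen with earlier results of these data known. Alternatives were an added value of 0.1, filters of FPKM above 0 and above 1, median-ratio and upper-quartile scaling, no trend, all 12 livers, a block for the replicate number, and leaving out each liver. Lists of pathway and marker genes were not used, because 0 of 18260 mRNAs could be given a symbol. No test of PL or JP against SM or BP was made.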

Additional observations from a re-analysis of the deposited data

How the results depend on the processing

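In fits without 1 liver, the mRNAs called ranged from 814 to 4054 (higher 320 to 993, lower 456 to 3061) and the lncRNAs called by limma from 0 to 106 (higher 0 to 85, lower 0 to 21). Median-ratio and upper-quartile scaling gave 1389 and 1510 higher mRNAs and 17 and 16 higher lncRNAs. Median-ratio scaling without PL3, chosen after seeing the data, gave 1756 higher mRNAs and 130 lncRNAs (103 higher). For lncRNAs, an added value of 0.1 gave 201 calls (109 higher, 92 lower), FPKM above 1 gave 77 (43 lower), no trend gave 79 (41 higher, 38 lower) and all 12 livers gave 145 (79 higher, 66 lower). With FPKM above 0 in at least 1 liver, limma called 0 lncRNAs (0 higher, 0 lower) of 12747, with 892 at an unadjusted p under 0.05. The difference in the number of lncRNAs, 48.3 above 1 FPKM, was 81.0 above 0.1 FPKM, with overlapping stages (exact permutation test, p = 0.7). The cause was not tested. No named transcript changed sign in any setting. The labels do not say whether livers with the same replicate number shared anything else. The deviations of such livers correlated by -0.02 to 0.01 over mRNAs and 0.02 to 0.05 over lncRNAs. Not every liver correlated best with its own number. These correlations cannot show that nothing else was shared. With the replicate number as a block, 1897 mRNAs (719 higher, 1178 lower) and 11 lncRNAs (6 higher, 5 lower) were called.

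Whether the number of livers or the low FPKM of most lncRNAs limits the lncRNA list was not tested. Whether the difference of PL3 from PL1 and PL2 lies in the bird, the tissue piece or the library was not tested.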

Other observations

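In the other stages of the series, ENSGALT00000060226 averaged 4.05 FPKM in SM livers and 2081 FPKM in BP livers. ENSGALT00000051020 averaged 0.752 FPKM in SM livers and 617 FPKM in BP livers. These 2 mRNAs do not stand for all 834 called higher. Placed between JP (0) and PL (1), the 834 had a median of 0.672 for SM and 0.729 for BP. Nearer to PL than to JP were 60.9% of them in SM and 67.5% in BP. The 1518 mRNAs called lower had medians of 0.232 for SM and 0.391 for BP, with 30.7% and 42.6% nearer to PL. The lncRNA run TCONS_00179344 to TCONS_00179354 summed to 0.152, 0.215 and 0.195 FPKM in the SM livers and to 3.62, 4.79 and 6.28 FPKM in the BP livers. These BP values lay below those of every PL liver. The run TCONS_00155613 to TCONS_00155620 summed to 0.234, 1.05 and 0.429 FPKM in the SM livers. In the BP livers its sums were 6.67, 8.63 and 7.25 FPKM, beside 7.63, 10.03 and 13.5 FPKM in PL1, PL2 and PL3. The run TCONS_00038625 to TCONS_00038638 summed to 0.264, 0.0835 and 0.439 FPKM in the BP livers, below every PL liver. The SM and BP livers had larger FPKM sums than the PL and JP livers, so that stage and library cannot be told apart in these values.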
